A study of Homo sapiens with 12 samples.

Results

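The genes described here are 38 genes of protein folding and quality control in the endoplasmic reticulum (ER), out of 34886 gene symbols in the count table. They were chosen by symbol, from their known functions, with earlier results of these data known. Counts of them set beside shares of all genes are therefore a description. They comprised 13 folding chaperones and co-factors, 7 enzymes of oxidative folding, 12 genes of ER-associated degradation and translocation, and 6 sensors and transducers of the unfolded protein response. All 38 were in the table, VIMP under its newer symbol SELENOS, and all 38 passed the filter on low counts.

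RNA came from the human cell line H446, derived from small cell lung cancer and grown with serum. Treated cells had received CAPE (caffeic acid phenethyl ester, a component of the bee product propolis) at 40 µM in dimethyl sulfoxide (DMSO) for 8 h, and the control cells the same volume of DMSO. There were 3 CAPE and 3 DMSO libraries of mRNA. Nothing in the labels tells whether the 3 came from separate cultures, so the p-values below measure the spread between these libraries, which may be technical. Among neuroendocrine markers of small cell lung cancer, NEUROD1, INSM1 and CHGA stayed under 1 TPM, a length-scaled unit of transcript abundance, in every library, while ENO2 and UCHL1 were above that level.

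Proteins that enter the secretory pathway fold in the ER with the help of the chaperone HSPA5 (BiP), its co-chaperones, lectin chaperones and disulfide isomerases. Those that fail to fold are drawn back through the membrane, ubiquitinated and degraded. When unfolded proteins build up, the membrane sensors IRE1 (ERN1), PERK (EIF2AK3) and ATF6 start the unfolded protein response. IRE1 splices the mRNA of the transcription factor XBP1, PERK phosphorylates the initiation factor eIF2 and so favours translation of ATF4, and ATF6 is cut in the Golgi by the proteases MBTPS1 and MBTPS2. The transcription factors so released raise the mRNAs of chaperones and degradation factors. Gene counts do not separate spliced from unspliced XBP1 mRNA, and they do not show cleavage of ATF6 or phosphorylation.

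The libraries held 17569997 to 17993349 estimated counts in CAPE and 17770295 to 20917508 in DMSO, the most in DMSO 3. DMSO 3 differed from the average of DMSO 1 and DMSO 2 by 2-fold or more in many genes, with 2858 below and 2836 above that bound among 13595. Of the 38 ER genes, 5 lay below and 8 above it. Fold changes of the 38 genes are therefore given with all 6 libraries and without DMSO 3. Values are CPM, counts scaled to 1000000 per library after its size was adjusted by TMM (the trimmed mean of M values). The TMM factor was 0.699 for DMSO 3 and 1.07 to 1.09 for the other libraries. The lower factor raised the CPM of DMSO 3 relative to its plain share of counts. A gene was called where edgeR's quasi-likelihood test gave an adjusted p under 0.05 over all genes tested.

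The ER genes were higher with CAPE in most cases once DMSO 3 was left out, and the members of the 4 roles differed in this. Without DMSO 3, 28 of the 38 rose and 2 fell, where 20.4% of all 13919 genes tested rose and 20.8% fell. All 13 folding chaperones rose, as did 6 of 7 oxidative folding genes and 7 of 12 degradation and translocation genes, with none lower in these roles. Of the 6 sensors and transducers, 2 rose and 2 fell. Among the 38, 5 rose at least 2-fold (HERPUD1, HSPA5, DNAJB9, XBP1 and ERO1B), where 4.38% of all genes did. The median log2 fold change was 0.45 for folding chaperones, 0.25 for oxidative folding, 0.26 for degradation and translocation and -0.06 for sensors and transducers, against 0.00 over all genes. These medians describe the roles, and no difference between roles was tested.

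With all 6 libraries, 1 of the 38 rose, DNAJB9, and none fell, where 1.49% of 13595 genes rose and 0.456% fell. At an unadjusted p under 0.05, 13 members were higher and 1 lower, where 9.54% and 6.52% of all genes were. The role medians were then 0.43, 0.08, 0.06 and 0.03 in the order above, against -0.01 over all genes. The CPM of all 3 CAPE libraries lay above all 3 DMSO libraries in 16 members, where 21.4% of all genes showed this, and below them in 3, where 20.6% did. Of the 16, 9 were folding chaperones, 2 oxidative folding genes, 4 degradation genes and 1 a sensor. In bulk RNA, more cells that express a gene and more RNA per cell cannot be told apart.

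Other fits with all 6 libraries differed in how many members they called. Limma's voom with sample quality weights, which gave DMSO 3 a weight of 0.0200 against 2.02 to 2.46 for the others, called 27 members higher and 3 lower, where 21.4% and 19.7% of all genes were called. DESeq2's Wald test called 8 members higher (HSPA5, DNAJB9, DNAJC3, ERO1A, ERO1B, HERPUD1, EDEM1 and ERN1), where 3.35% of genes with an adjusted p were called higher. An edgeR fit with offsets for transcript length called DNAJB9, DNAJC3, ERO1A, HERPUD1 and EDEM1 higher, against 1.73% of all genes. Limma on log2(TPM + 1) called HSPA5, HERPUD1 and XBP1 higher, against 0.824% of all genes. None of these 3 fits called a member lower.

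**Figure D1:**
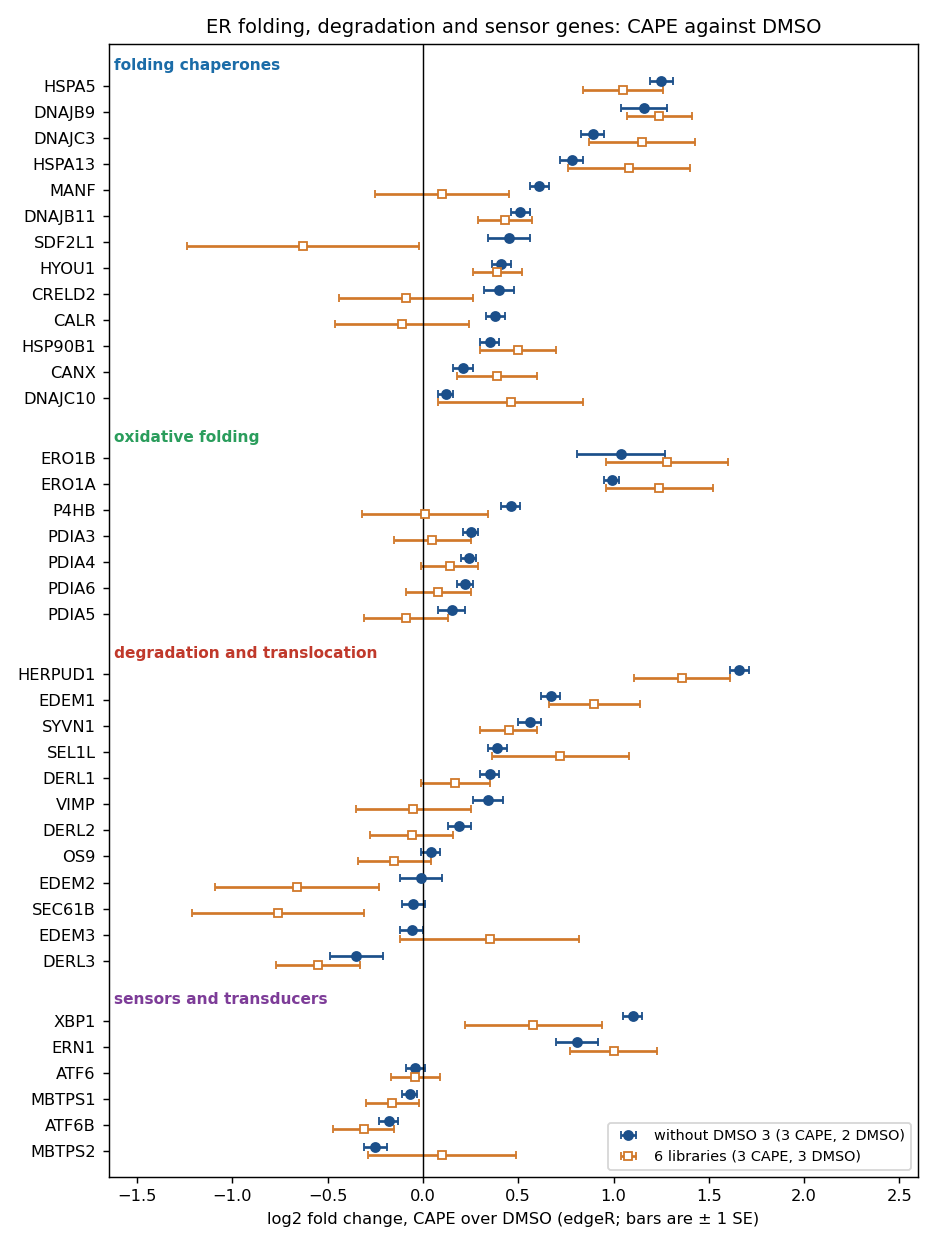
Log2 fold change of CAPE over DMSO for the 38 genes, grouped by role, from edgeR. Filled circles are the fit without DMSO 3 and open squares the fit with all 6 libraries, with bars of 1 SE. HERPUD1 has the largest value without DMSO 3 (1.66), SDF2L1 and SEC61B lie left of 0 with all 6 libraries (-0.63 and -0.76), and ATF6 lies at -0.04 in both.

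HSPA5, which encodes the ER HSP70 chaperone BiP that also holds the sensors inactive, had 2709, 2762 and 2592 CPM in CAPE libraries, against 1174, 1078 and 1629 CPM in DMSO libraries, the last in DMSO 3. Every CAPE library was above every DMSO library. HSPA5 rose 2.38-fold without DMSO 3, or 1.25 in log2 (SE 0.06, edgeR adjusted p = 2.7e-10), and with 6 libraries the change was 1.05 (SE 0.21, adjusted p = 0.082). Per transcript length HSPA5 had 1056, 1069 and 1009 TPM in CAPE libraries and 457, 422 and 307 TPM in DMSO libraries. The gene lies on chromosome 9 at 125234853 to 125241343 (GRCh38, RefSeq). Its promoter just before the transcript start, chr9:125241351-125241469 on the minus strand, is shown because it holds an ER stress response element (ERSE). In RefSeq's GRCh38.p14 sequence the capitals mark the fixed letters of that element, CCAAT and CCACG:
HSPA5: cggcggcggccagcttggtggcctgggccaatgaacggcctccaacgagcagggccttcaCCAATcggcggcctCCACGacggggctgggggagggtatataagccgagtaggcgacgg

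The co-chaperones with J domains, which deliver clients to HSPA5, were led by DNAJB9 and DNAJC3. DNAJB9 (ERdj4), which also represses IRE1, had 15.6, 17.4 and 14.9 CPM in CAPE libraries, against 6.90, 7.36 and 5.95 CPM in DMSO libraries. In CPM the groups did not overlap and DMSO 3 lay close to the other DMSO libraries. DNAJB9 rose in log2 by 1.24 with 6 libraries (SE 0.17, edgeR adjusted p = 0.0276) and 1.16 without DMSO 3 (SE 0.12, adjusted p = 1.81e-06). The call was lost when any 1 of the other 5 libraries was left out, with adjusted p from 0.107 to 0.217 and log2 fold changes from 1.19 to 1.30. In TPM DNAJB9 had 10.1 to 12.2 in CAPE libraries, against 4.84, 4.32 and 1.68 in DMSO libraries, the last in DMSO 3. Limma on log2(TPM + 1) did not call DNAJB9 (1.48, adjusted p = 0.17). DNAJC3 (p58IPK), an inhibitor of PERK, had 98.9, 95.5 and 95.0 CPM in CAPE libraries, against 50.8, 52.7 and 26.8 CPM in DMSO libraries. It rose without DMSO 3 by 0.89 (SE 0.06, adjusted p = 9.03e-09), and with 6 libraries measured 1.15 (SE 0.28, adjusted p = 0.128). DNAJB11 (ERdj3), a secreted co-chaperone, rose without DMSO 3 by 0.51 (SE 0.05, adjusted p = 9.45e-07), at 183 to 193 CPM in CAPE and 127 to 153 CPM in DMSO, and measured 0.43 with 6 libraries (adjusted p = 0.234). DNAJC10 (ERdj5), a disulfide reductase that prepares clients for degradation, measured 0.12 without DMSO 3 (SE 0.04, adjusted p = 0.0462) and 0.46 with 6 libraries (SE 0.38, adjusted p = 0.481). The call of DNAJC10 was not made with quality weights (0.13, adjusted p = 0.109), nor without DMSO 3 with length offsets (0.04, adjusted p = 0.494) or with the replicate block (0.11, adjusted p = 0.0792).

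HSPA13, an HSP70-like ATPase of microsomes, had 194, 199.7 and 202 CPM in CAPE libraries, against 107, 123 and 52.4 CPM in DMSO libraries. It rose without DMSO 3 by 0.78 (SE 0.06, edgeR adjusted p = 6.7e-08), with 1.08 (SE 0.32, adjusted p = 0.196) in 6 libraries. HYOU1, the HSP110-like exchange factor of HSPA5, had the smallest deviation of DMSO 3 in CPM among the chaperones, at 294, 298 and 291 CPM in CAPE libraries and 231, 212 and 229 CPM in DMSO libraries. Its log2 fold change was 0.41 without DMSO 3 (SE 0.05, adjusted p = 4.9e-06), a rise, and 0.39 with 6 libraries (SE 0.13, adjusted p = 0.242). In TPM DMSO 3 held 41.4, below 86.5 and 76.9 in DMSO 1 and DMSO 2, and with length offsets and 6 libraries the value of HYOU1 was 0.09 (adjusted p = 0.802). HSP90B1 (GRP94), the ER HSP90, rose without DMSO 3 by 0.35 (SE 0.05, adjusted p = 3.29e-05), at 1549 to 1617 CPM in CAPE, against 1241 and 1240.1 CPM in DMSO 1 and DMSO 2 and 876 CPM in DMSO 3. With 6 libraries HSP90B1 measured 0.50 (SE 0.20, adjusted p = 0.295).

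The lectin chaperones, which hold glycoproteins while they fold, had small fold changes. CALR (calreticulin) had 1494, 1445 and 1417 CPM in CAPE libraries, against 1143, 1081 and 2476 CPM in DMSO libraries. DMSO 3 was the highest of the 6, and the log2 fold change differed with it: 0.38 without DMSO 3, a rise (SE 0.05, edgeR adjusted p = 2.13e-05), and -0.11 with 6 libraries (SE 0.35, adjusted p = 0.856). In TPM, DMSO 3 held 1062, close to 1026 and 977 in DMSO 1 and DMSO 2, and below the 1290 to 1373 TPM of CAPE. CANX (calnexin), its membrane-bound relative, rose by 0.21 without DMSO 3 (SE 0.05, adjusted p = 0.0033) and measured 0.39 with 6 libraries (adjusted p = 0.357), and in CPM its CAPE libraries lay above all DMSO libraries.

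MANF, CRELD2 and SDF2L1, small secreted or luminal proteins known as ER stress genes, each had their highest CPM in DMSO 3. MANF, a neurotrophic factor, had 111 to 112 CPM in CAPE libraries, against 75.2, 70.5 and 166 CPM in DMSO libraries. SDF2L1, a partner of the J-domain protein DNAJB11, had 13.1 to 15.6 CPM in CAPE libraries, against 11.0, 9.92 and 45.6 CPM in DMSO libraries. In TPM, MANF had 213 to 217 in CAPE libraries and 135 to 136 in DMSO libraries, and CRELD2 37.8 to 39.4 and 27.2 to 33.3. SDF2L1 was highest in DMSO 3 in TPM too, at 56.5, against 35.0 to 41.6 in CAPE libraries. Without DMSO 3 all 3 rose, MANF by 0.61, SDF2L1 by 0.45 and CRELD2 by 0.40 (edgeR adjusted p from 2.86e-07 to 0.00587), and with 6 libraries they measured 0.10, -0.63 and -0.09, with adjusted p from 0.544 to 0.881.

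**Figure D2:**
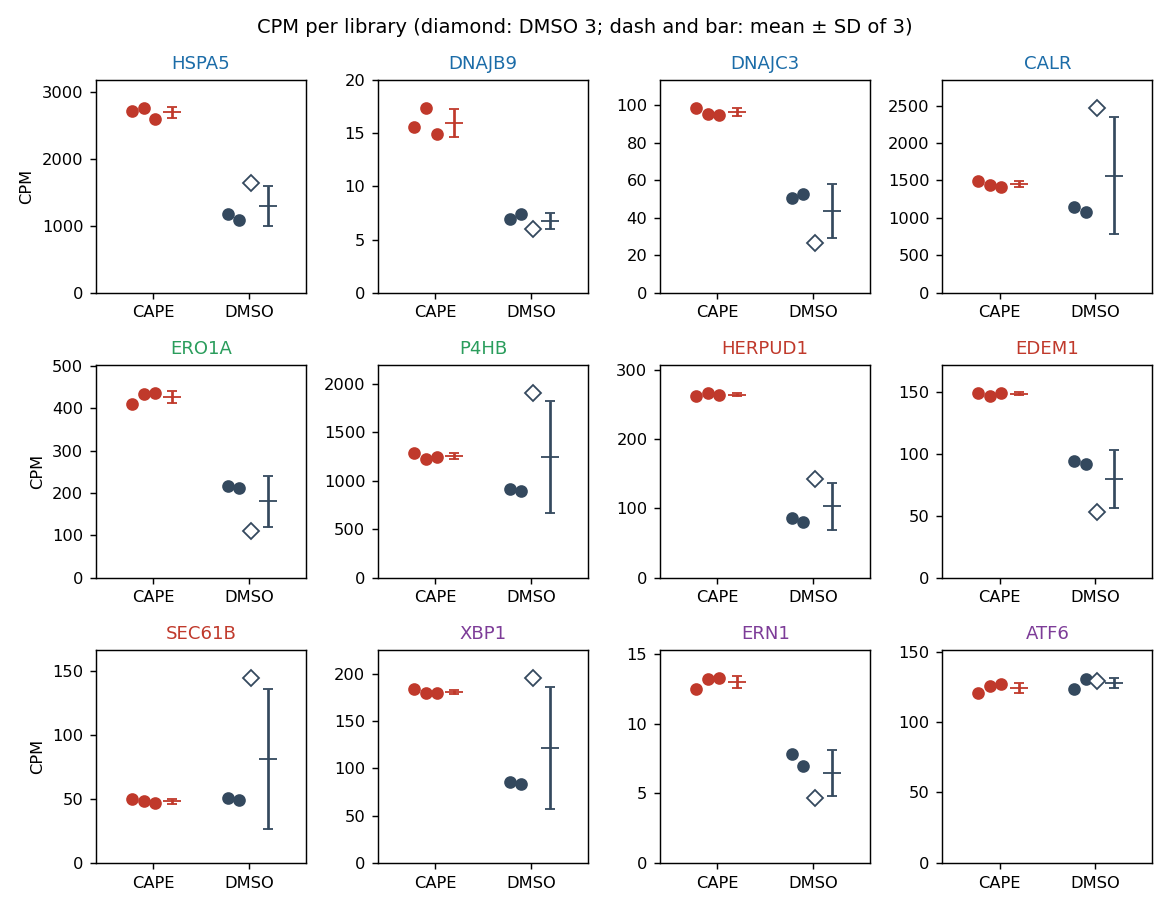
CPM of 12 of the genes in each library, CAPE left of DMSO, with the axis of each panel from 0. Circles are libraries, the open diamond is DMSO 3, and dash and bar are the mean ± SD of 3 libraries. DMSO 3 lies above the CAPE libraries for CALR, P4HB, SEC61B, XBP1 and, by a small margin, ATF6. It lies below the other DMSO libraries for DNAJB9, DNAJC3, ERO1A, EDEM1 and ERN1.

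In oxidative folding, the oxidases that recharge disulfide isomerases had larger fold changes than the isomerases. ERO1A, the main thiol oxidase of the ER, had 411, 434 and 437 CPM in CAPE libraries, against 217, 213 and 111 CPM in DMSO libraries, with no overlap. ERO1A rose without DMSO 3 by 0.99 (SE 0.04, edgeR adjusted p = 1.61e-10), and measured 1.24 with 6 libraries (SE 0.28, adjusted p = 0.107). Its paralogue ERO1B was far rarer, at 4.12, 4.73 and 3.17 CPM in CAPE libraries and 1.84, 2.04 and 1.03 CPM in DMSO libraries. ERO1B rose without DMSO 3 by 1.04, with a wider error (SE 0.23, adjusted p = 0.0019), and measured 1.28 with 6 libraries (adjusted p = 0.142).

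The isomerases moved by smaller amounts. P4HB (PDI), the founding member of the family, had 1287, 1225 and 1244 CPM in CAPE libraries, against 920.4, 895 and 1909 CPM in DMSO libraries. It rose without DMSO 3 by 0.46 (SE 0.05, edgeR adjusted p = 1.82e-06), and measured 0.01 with 6 libraries (SE 0.33, adjusted p = 0.983). PDIA3 (ERp57), which works with the lectin chaperones, PDIA4 (ERp72) and PDIA6 (P5) rose without DMSO 3 by 0.25, 0.24 and 0.22, each with an SE of 0.04. With 6 libraries PDIA3 measured 0.05, PDIA4 0.14 and PDIA6 0.08, with adjusted p from 0.568 to 0.876. PDIA5 was the 1 gene of this role that was not called there, at 0.15 (95% interval -0.01 to 0.31, adjusted p = 0.114), and it measured -0.09 with 6 libraries (adjusted p = 0.8). All 5 isomerases had their highest CPM in DMSO 3, so that none separated the groups in CPM with 6 libraries. Before scaling, the counts of PDIA3, PDIA4 and PDIA6 in DMSO 3 were below those of every CAPE library. The unscaled counts of P4HB and PDIA5 in DMSO 3 were above them. In TPM the CAPE libraries of P4HB, PDIA3, PDIA4 and PDIA6 lay above all DMSO libraries, while those of PDIA5 overlapped. P4HB had 910 to 911 TPM in CAPE libraries, against 613, 584 and 622 TPM in DMSO libraries. On log2(TPM + 1) the median of all genes was itself shifted to 0.31.

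HERPUD1, a membrane adaptor that gathers the retrotranslocation complex around the ubiquitin ligase SYVN1, had the largest fold change of the 38 genes in both fits. It had 262, 267 and 264 CPM in CAPE libraries, against 86.5, 80.0 and 142 CPM in DMSO libraries, the last in DMSO 3 and still well below CAPE. HERPUD1 rose 3.17-fold without DMSO 3, or 1.66 in log2 (SE 0.05, edgeR adjusted p = 3.97e-12), and with 6 libraries the value was 1.36 (SE 0.25, adjusted p = 0.064). The gene lies on chromosome 16 at 56932142 to 56944864. Its promoter stretch chr16:56931965-56932075, plus strand, is shown because it holds 2 kinds of stress element. The first capitals mark a C/EBP-ATF response element of the kind ATF4 binds, read on the opposite strand, and the next mark the fixed letters of an ERSE-II element:
HERPUD1: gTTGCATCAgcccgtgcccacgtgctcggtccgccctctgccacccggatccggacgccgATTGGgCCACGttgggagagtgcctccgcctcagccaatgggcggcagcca

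The core ubiquitin ligase of the pathway moved less. SYVN1 (HRD1), the ligase, had 102, 101 and 94.4 CPM in CAPE libraries and 69.0, 64.6 and 83.1 CPM in DMSO libraries. SYVN1 rose without DMSO 3 by 0.56 (SE 0.06, edgeR adjusted p = 1.89e-06), against 0.45 with 6 libraries (adjusted p = 0.246). SEL1L, its scaffold, rose without DMSO 3 by 0.39 (SE 0.05, adjusted p = 8.06e-06), and measured 0.72 with 6 libraries (SE 0.36, adjusted p = 0.348). SEL1L measured 43.0 CPM in DMSO 3 beside 109 and 110.2 CPM in the other DMSO libraries, and 142 to 146 CPM in CAPE.

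The EDEM proteins, which trim mannose from misfolded glycoproteins to mark them for degradation, differed in their fold changes. EDEM1 had 149, 147 and 149.6 CPM in CAPE libraries, against 94.2, 92.1 and 53.2 CPM in DMSO libraries. It rose without DMSO 3 by 0.67 (SE 0.05, edgeR adjusted p = 3.25e-08), with 0.90 in 6 libraries (SE 0.24, adjusted p = 0.164). EDEM2 and EDEM3 were not called in either fit. Without DMSO 3 EDEM2 measured -0.01 (95% interval -0.25 to 0.23) and EDEM3 -0.06 (95% interval -0.18 to 0.07), and with 6 libraries -0.66 and 0.35 (adjusted p = 0.395 and 0.66). The interval of EDEM1, 0.57 to 0.77, did not meet either of these, though the difference between the paralogues was not itself tested.

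The derlins, membrane proteins of the retrotranslocation channel, also differed. DERL1 and DERL2 rose without DMSO 3 by 0.35 and 0.19 (edgeR adjusted p = 8.63e-05 and 0.0213). With 6 libraries they measured 0.17 and -0.06 (adjusted p = 0.579 and 0.874), and DMSO 3 lay above every CAPE library for both. DERL3 was rare, at 4.86, 4.79 and 4.86 CPM in CAPE libraries and 6.59, 5.69 and 9.03 CPM in DMSO libraries. All 3 CAPE libraries lay below all 3 DMSO libraries, with a value of -0.35 without DMSO 3 (SE 0.14, adjusted p = 0.0679) and -0.55 with 6 libraries (SE 0.22, adjusted p = 0.307). In TPM the groups of DERL3 overlapped.

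VIMP (SELENOS), a selenoprotein that ties the channel to the ATPase VCP, rose without DMSO 3 by 0.34 (SE 0.08, edgeR adjusted p = 0.00278). With 6 libraries VIMP measured -0.05 (adjusted p = 0.921), and DMSO 3, at 61.6 CPM, was above the 38.9 to 41.7 CPM of CAPE. OS9, the lectin that hands glycoproteins to SEL1L, measured 0.04 without DMSO 3 (95% interval -0.06 to 0.14) and -0.15 with 6 libraries (adjusted p = 0.642). SEC61B, a subunit of the translocon through which proteins enter the ER, had 50.0, 48.1 and 46.4 CPM in CAPE libraries, against 50.3, 49.2 and 145 CPM in DMSO libraries. Without DMSO 3 its log2 fold change was -0.05 (95% interval -0.18 to 0.08), and with 6 libraries -0.76 (SE 0.45, adjusted p = 0.369).

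Among the sensors and transducers, XBP1 and ERN1 rose without DMSO 3, while ATF6, ATF6B, MBTPS1 and MBTPS2 did not. With 6 libraries none of these genes was called, and no difference between arms of the response was tested. XBP1, the transcription factor whose mRNA IRE1 splices, had 184, 179 and 180.0 CPM in CAPE libraries, against 85.3, 83.0 and 196 CPM in DMSO libraries. DMSO 3 was above all CAPE libraries in CPM. In TPM the groups did not overlap, with 169, 165 and 165 TPM in CAPE libraries and 77.9, 76.4 and 87.1 TPM in DMSO libraries. XBP1 rose without DMSO 3 by 1.10 (SE 0.05, edgeR adjusted p = 1.38e-10). With 6 libraries the count-based value was 0.58 (SE 0.36, adjusted p = 0.381), and limma on log2(TPM + 1) gave 1.04 (SE 0.12, adjusted p = 0.0249), where the median of all genes was shifted to 0.31.

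The XBP1 gene lies on chromosome 22 at 28794560 to 28800569. Its promoter stretch chr22:28800570-28800681, minus strand, is shown because it holds an ERSE within the last bases before the start, marked in capitals:
XBP1: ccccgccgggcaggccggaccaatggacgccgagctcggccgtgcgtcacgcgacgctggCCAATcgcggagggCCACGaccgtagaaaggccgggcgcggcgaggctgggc

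ERN1, which encodes IRE1 itself, had 12.5, 13.2 and 13.3 CPM in CAPE libraries, against 7.85, 6.94 and 4.65 CPM in DMSO libraries. The groups did not overlap, and ERN1 rose without DMSO 3 by 0.81 (SE 0.11, edgeR adjusted p = 5.07e-05), with 1.0 in 6 libraries (SE 0.23, adjusted p = 0.111). ATF6 had 120.3, 125 and 127 CPM in CAPE libraries and 124, 131 and 129 CPM in DMSO libraries. ATF6 was among the members least touched by DMSO 3, and its log2 fold change was -0.04 in both fits, with a 95% interval from -0.14 to 0.07 without DMSO 3. ATF6 had the longest relative transcript length of the 38, and its value depended on the scaling, at -0.64 with length offsets (adjusted p = 0.282) and 0.28 on log2(TPM + 1).

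ATF6B, the weaker paralogue of ATF6, had 97.9, 97.4 and 101 CPM in CAPE libraries, against 112, 112 and 145 CPM in DMSO libraries. It fell without DMSO 3 by 0.18 (SE 0.05, edgeR adjusted p = 0.00713), and measured -0.31 with 6 libraries (adjusted p = 0.351). MBTPS2 (site-2 protease) fell without DMSO 3 by 0.25 (SE 0.06, adjusted p = 0.00447), at 75.4, 77.6 and 70.2 CPM in CAPE libraries, against 84.0, 92.5 and 32.2 CPM in DMSO libraries. Its sign turned with DMSO 3, to 0.10 with 6 libraries (adjusted p = 0.885). MBTPS1 (site-1 protease) measured -0.07 without DMSO 3 (95% interval -0.17 to 0.02) and -0.16 with 6 libraries (adjusted p = 0.528). These proteases also release the sterol regulator SREBP, so they are not specific to the unfolded protein response.

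Levels between genes are compared in TPM, which divides by length. Over the members the order in CAPE ran from CALR, at 1290 to 1373 TPM, down to ERO1B at 1.14 to 2.22 TPM. HSPA5 had 1009 to 1069 TPM and HSP90B1 992 to 1049 TPM in CAPE libraries, and HSP90B1 was above HSPA5 in CAPE 3. In CAPE 1, CALR, HSPA5, HSP90B1, P4HB, CANX and PDIA3 were the 6 highest, each above 633 TPM. HERPUD1 came next in CAPE, at 436 to 471 TPM, while in DMSO libraries it had 140, 124 and 74.0 TPM. Together the 38 genes held 8961, 9037 and 8827 TPM in CAPE libraries, against 6498, 6295 and 4456 TPM in DMSO libraries. As a share of all counts, without the TMM factor, they took 1.53%, 1.52% and 1.52% in CAPE libraries and 1.09%, 1.06% and 0.885% in DMSO libraries. No CAPE library overlapped a DMSO library in either measure.

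The genes were chosen by symbol, without a search of their promoters. Genes and elements were both picked as known parts of the ER stress response, so the shares below are a description and not independent evidence. RefSeq promoters, each from 250 bases before to 50 bases after a transcript start (GRCh38.p14), were found for 35 of the 38 genes. They were searched on both strands for the ERSE (CCAAT and CCACG with 9 bases between), for ERSE-II (ATTGG and CCACG with 1 base between), for the core of the XBP1 element (TGACGTGG) and for the C/EBP-ATF element (TGATGCAA). The ERSE stood in 8 of the 35 genes, or 22.9%, against 25 of all 27305 genes with a promoter, or 0.0916%. ERSE-II stood in 3 of the 35, or 8.57%, against 0.0696% of all. The XBP1 core stood in HYOU1, where it overlaps an ERSE-II, and in DNAJC10 (5.71% against 0.927%), and the C/EBP-ATF element in HERPUD1 (2.86% against 1.08%). A match is a run of letters and not a shown binding site, and these windows leave out elements farther away or spelled otherwise.

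The matched ERSE sites are shown to compare the spacers between the fixed letters, which are in capitals, each read on the strand that carries the motif. HSP90B1 had a pair of sites.
HSPA5: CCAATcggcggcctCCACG
HSP90B1, distal: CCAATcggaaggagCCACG
HSP90B1, proximal: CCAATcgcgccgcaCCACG
CALR: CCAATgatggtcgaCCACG
CANX: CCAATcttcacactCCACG
CRELD2: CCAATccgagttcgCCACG
PDIA6: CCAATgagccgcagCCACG
ERO1B: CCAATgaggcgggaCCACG
XBP1: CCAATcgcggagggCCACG

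All 11 genes with an ERSE or ERSE-II rose without DMSO 3, against 15 of the 24 with neither, of which 2 fell, where 20.4% of all genes rose and 20.8% fell. Their median log2 fold changes were 0.41 and 0.29, and the ranges, 0.21 to 1.66 and -0.25 to 1.16, overlapped. HERPUD1, HSPA5, XBP1 and ERO1B, all with an element, were 4 of the 5 that rose at least 2-fold, and DNAJB9, with neither, was the fifth. With 6 libraries the medians were 0.39 with an element and 0.12 with neither, and DNAJB9 was the only member called. In CPM all CAPE libraries lay above all DMSO libraries in 6 of the 11 and 10 of the 24, where 21.4% of all genes showed this. The difference between these sets was not tested. Of 33 genes outside the 38 that held an ERSE or ERSE-II, 19 were tested without DMSO 3. Of those, 4 rose and 4 fell, with a median of 0.03, shares near the 20.4% and 20.8% of all genes.

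**Figure D3:**
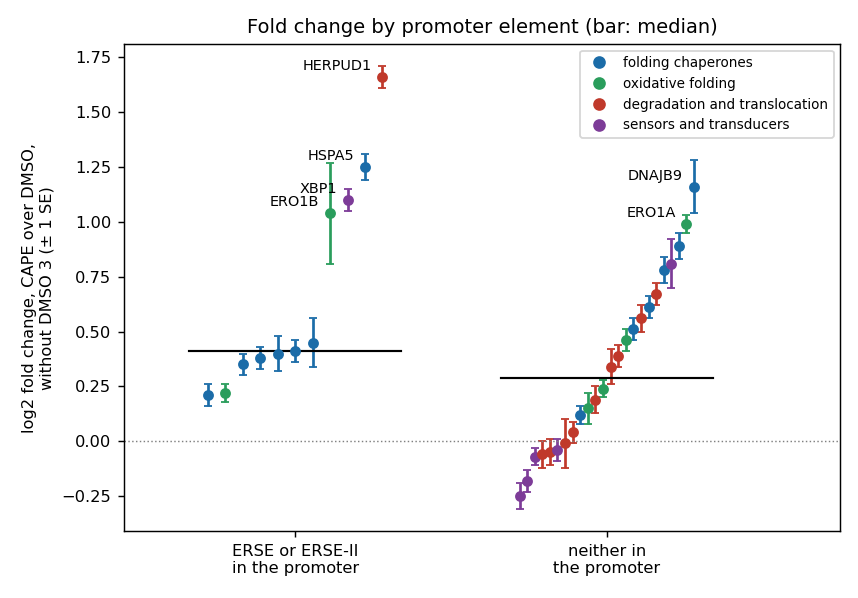
Log2 fold change of CAPE over DMSO without DMSO 3, with bars of 1 SE, for the 11 genes with an ERSE or ERSE-II in the promoter and the 24 with neither. Colours give the role and the horizontal bars the medians, 0.41 and 0.29. All 11 points on the left lie above 0, while those on the right run from -0.25 to 1.16.

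The deviation of DMSO 3 in the ER genes went with transcript length. The relative length of a gene was taken as its counts over its TPM, scaled by each library's median, averaged over libraries and put on a log2 scale. Over the 38 genes, Spearman's rho between this length and the deviation of DMSO 3 from DMSO 1 and DMSO 2 was -0.86, and Pearson's r was -0.79. Over all 13595 genes rho was -0.46. These describe 1 library and its points share that library, so no p is given. DMSO 3 exceeded the other DMSO libraries' mean in 25 of the 38 genes, with deviations from -1.85 (EDEM3) to 2.11 (SDF2L1), and above every CAPE library in 20. Between the fits with and without it 9 members changed sign. Its part in the fold changes with 6 libraries is measured by the fit without it, and what set it apart was not tested.

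**Figure D4:**
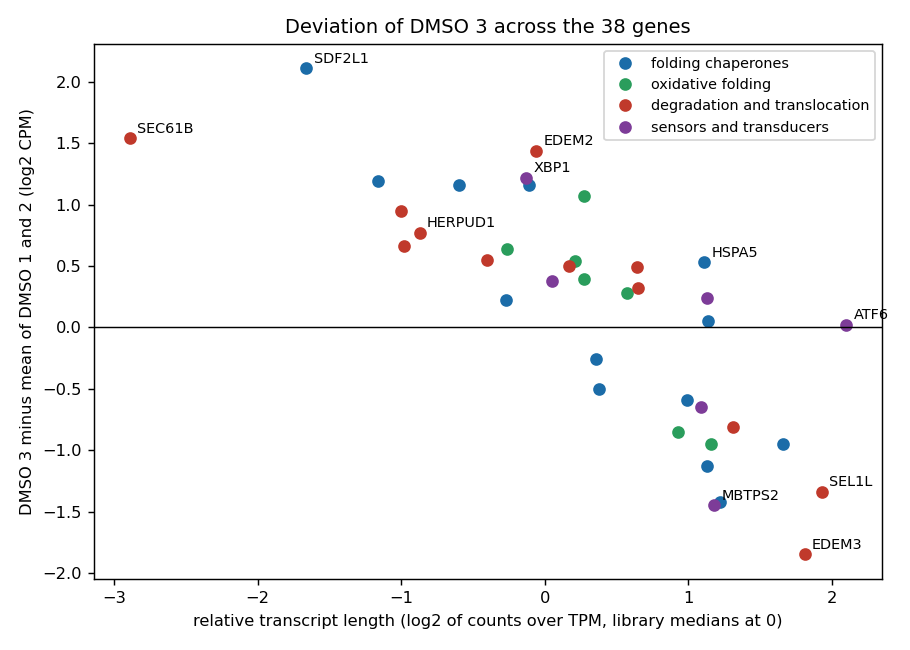
Deviation of DMSO 3 from the mean of DMSO 1 and DMSO 2 in log2 CPM against relative transcript length in log2 units, 1 point for each of the 38 genes, coloured by role. Genes with short transcripts such as SDF2L1 and SEC61B lie at 2.11 and 1.54, and genes with long ones such as EDEM3 and SEL1L at -1.85 and -1.34. HERPUD1 and XBP1 lie above 0.

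Other genes of the same pathways were taken from lists of 172 genes. Of 14 tested transducers of the unfolded protein response and its ATF4 branch outside the 38, 9 rose and 1 fell without DMSO 3, with a median of 0.59, where 20.4% of all genes rose and 20.8% fell. EIF2AK3, which encodes PERK, had 30.4, 31.2 and 31.3 CPM in CAPE libraries, against 18.3, 20.6 and 8.48 CPM in DMSO libraries, and rose without DMSO 3 by 0.67 (SE 0.08, edgeR adjusted p = 1.15e-05), with 0.97 in 6 libraries (adjusted p = 0.244). DDIT3 (CHOP), a transcription factor of prolonged stress, was the 1 gene of these lists called with 6 libraries, where 1.49% of all genes rose. DDIT3 had 20.3, 23.8 and 22.6 CPM in CAPE libraries and 4.53, 4.33 and 5.68 CPM in DMSO libraries (log2 fold change 2.20, SE 0.18, edgeR adjusted p = 0.0106). PPP1R15A (GADD34), which directs dephosphorylation of eIF2, and TRIB3, a pseudokinase that restrains ATF4, each rose by 1.53 without DMSO 3. With 6 libraries PPP1R15A measured 1.17 (adjusted p = 0.125) and TRIB3 0.76 (adjusted p = 0.388), and DMSO 3, at 132 CPM of TRIB3, was above the 116 to 129 CPM of CAPE. ATF4 rose by 0.52 without DMSO 3, but DMSO 3, at 878 CPM, was above the 513 to 531 CPM of CAPE, and the 6-library value was -0.03 (adjusted p = 0.964). CREB3L2, an ATF6-like factor, fell by 0.26 without DMSO 3 and measured 0.00 with 6 libraries.

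The lists nearer to the general secretory pathway had smaller medians, and the counts below stand beside the same shares of all genes, 20.4% higher and 20.8% lower. The single-gene values are those without DMSO 3. Of 34 other folding and disulfide enzymes 15 rose and none fell without DMSO 3 (median 0.12), with the smallest p for QSOX1, a thiol oxidase (0.53), and GPX8, a peroxidase of the ER membrane (0.39). Of 37 other degradation factors 9 rose and 6 fell, near the shares over all genes (median 0.00), among them NGLY1, which strips glycans from retrotranslocated proteins (0.55), and VCP, the ATPase that pulls them out (-0.26). Of 34 genes of the translocon, signal peptidase and oligosaccharyltransferase 13 rose and 1 fell (median 0.04), with the smallest p for SEC63, which couples HSPA5 to the translocon (0.44). Of 38 genes of ER-Golgi transport 12 rose and 3 fell (median 0.04), with the smallest p for SEC24D, a cargo adaptor of COPII vesicles (0.62). Of 8 ER-phagy receptors 4 rose and 1 fell, with the smallest p for CCPG1 (0.57), which leads ER fragments to autophagosomes. With 6 libraries 1.49% of all genes rose and 0.456% fell. No gene of these 5 lists passed in that fit, near those shares, and the list medians were -0.11 to 0.01.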

How the data were processed

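Per the submitters' processing notes, reads were handled with bcl2fastq and kallisto 0.46.1 against GRCh38. The authors deposited estimated counts per gene symbol, whole numbers as deposited, and TPM values per gene. The annotation release is not given in the sources used here, nor is the way transcripts were summed to genes. The miRNA libraries were not used.

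Counts were filtered with filterByExpr, scaled by TMM and compared with edgeR 4.0.16 (R 4.3.3), group being the only term, with Benjamini-Hochberg adjustment over all 13595 genes tested (13919 without DMSO 3). Each SE was computed as the log2 fold change, unsigned, over the square root of F. Alternatives used limma 3.58.1, DESeq2 1.42.0, each library left out, and offsets from a loess curve on relative length. The fits were tested on simulated data with planted changes and no outlying library, so those tests do not cover the effect of DMSO 3. All members are named, and of each other pathway list the genes of smallest p. Members, lists and motifs were chosen with earlier results of these data known. Replicates of a group differed by more than counting noise in all 6 pairs. Chi-square per degree of freedom was 3.17 for CAPE 1 with CAPE 3 and 4.93 for DMSO 1 with DMSO 2. It was 24.3 and 25.9 for the pairs with CAPE 2, and 304 and 308 for the pairs with DMSO 3. Protein sequences were not analysed here.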

Additional observations from a re-analysis of the deposited data

How the results depend on the processing

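The count of members called higher was 28 without DMSO 3 and 0 without any other single library, and the count called lower 2 and 0. Genes called higher ranged from 0 to 2836 and lower from 0 to 2895. In the 2 cases with 0 genes called in either direction, without CAPE 1 and without CAPE 3, the unadjusted p was under 0.05 for 1178 and 1099 genes. With 6 libraries the counts of genes called (higher, then lower) and of members called higher were 529, 327 and 8 in DESeq2, 2915, 2677 and 27 (3 lower) with quality weights, 135 lower and 5 with length offsets, 112, 23 and 3 on log2(TPM + 1), 69, 19 and 3 on log2(TPM + 0.1), and 51 and 13 on log2(TPM + 1) with no filter. Between CAPE and DMSO libraries of the same number, r of deviations was -0.19, 0.14 and -0.01 for numbers 1, 2 and 3. For unequal numbers it ran from -0.19 to 0.21. The DMSO deviations were taken from a mean that includes DMSO 3, so these values cannot tell whether the numbers pair the libraries. With the replicate block 0 genes and 0 members passed, while 1384 genes had p under 0.05 before adjustment. Combinations chosen after seeing the data called 26 members higher and 6 lower (2228 and 4241 genes) without DMSO 3 and with length offsets, and 27 and 2 (2469 and 2556 genes) without DMSO 3 and with the block.

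Role medians moved on TPM to 0.84 (folding), 0.52 or 0.53 (oxidative), 0.51 or 0.55 (degradation) and 0.43 or 0.46 (sensors), where the median of all genes moved to 0.31, 0.40 and, unfiltered, 0.16. With length offsets they were 0.31, 0.01, 0.09 and -0.21 beside -0.11 over all genes, and with weights 0.26 for oxidative folding and degradation. The degradation median was 0.03 with RLE factors or no filter, 0.01 in DESeq2 and 0.11 with the block. With 1 library left out it ran from -0.05 to 0.26, or 0.18 and 0.27 in the added combinations, and the oxidative median from 0.01 to 0.25, or 0.19 and 0.25.

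Signs turned against the 6-library fit in these cases, and the cause was not tested. On TPM (pseudocount 1, then 0.1) the values were CALR 0.38, SDF2L1 0.11, CRELD2 0.32 and 0.33, PDIA5 0.32 and 0.33, DERL2 0.35, OS9 0.29, VIMP 0.36 and 0.37, ATF6 0.28 and 0.30, ATF6B 0.07 and MBTPS1 0.22. With weights they were CALR 0.38, SDF2L1 0.43, CRELD2 0.40, PDIA5 0.15, DERL2 0.19, EDEM3 -0.04, OS9 0.04, VIMP 0.34 and MBTPS2 -0.24. With length offsets they were CRELD2 0.06, PDIA4 -0.01, P4HB -0.05, DERL1 -0.02, DERL2 0.09, VIMP 0.13 and MBTPS2 -0.09. P4HB was -0.04 in DESeq2 and -0.02 with RLE factors or no filter, and with the replicate block CALR was 0.01, CRELD2 0.02 and VIMP 0.03. With 1 library left out CALR ran from -0.33 to 0.38, CRELD2 from -0.31 to 0.40, DERL2 from -0.20 to 0.19, EDEM3 from -0.06 to 0.62, MANF from -0.12 to 0.61, MBTPS2 from -0.25 to 0.35, OS9 from -0.24 to 0.04, P4HB from -0.19 to 0.46, PDIA3 from -0.05 to 0.25, PDIA5 from -0.21 to 0.15, SDF2L1 from -0.99 to 0.45 and VIMP from -0.26 to 0.34. Without DMSO 3, length offsets gave CALR 0.32, CRELD2 0.32, DERL2 0.11, EDEM3 -0.15, MBTPS2 -0.33, PDIA5 0.08, SDF2L1 0.37 and VIMP 0.25, and the block 0.40, 0.43, 0.21, -0.03, -0.21, 0.15, 0.51 and 0.34, with OS9 at 0.02. HSPA5, DNAJB9, DNAJC3, ERO1A, HERPUD1, EDEM1, ERN1 and XBP1 were above 0 in all 18 fits. So were HSP90B1, HSPA13, HYOU1, CANX, DNAJB11, DNAJC10, PDIA6, ERO1B, SEL1L and SYVN1. DERL3, EDEM2 and SEC61B were below 0 in all 18.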
